A study of Rattus norvegicus with 30 samples.

Results

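Immediate early genes and feedback genes of the NF-kB pathway were followed in microglia (the brain's own macrophages) of rats that had an ischemic stroke. The list held 38 genes, chosen by name: subunits of the transcription factor AP-1, other early transcription factors of the EGR, KLF, Myc and NR4A families, MAP kinase phosphatases, NF-kB feedback genes, growth arrest and stress regulators, and early genes for matrix, GTPase and kinase proteins. Csrnp1 was grouped with the AP-1 subunits, though it is not one of them. A gene was matched to the array's annotation by its symbol, and where it had several probe sets the one with the highest mean over the 30 arrays was used, which applied to Fosl2 and Klf4. Of the 38 genes, 35 had a probe set and all 35 passed the filter on dim probe sets, among 14506 genes named on the array and 11675 tested. Fosb, Tnfaip3 and Btg2 had no probe set that carried their symbol alone and are not analysed here.

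Gene expression was measured on Affymetrix Rat Gene ST arrays in microglia of male rats. The strain is uncertain, because it is Wistar Kyoto in the characteristics but spontaneously hypertensive in the protocol text. Stroke was induced by 75 min of middle cerebral artery occlusion with a monofilament, followed by reperfusion, under 1.2% isoflurane. The 10 groups of 3 arrays were, at 12 months of age, the ipsilateral (injured) and the contralateral hemisphere at 14 days, the ipsilateral and the contralateral hemisphere at 3 days, and sham controls, and the same 5 groups at 3 months of age. Sample codes tied the ipsilateral and the contralateral array of each of 12 stroke rats, and each sham array stood alone. The sources used here do not give how the microglia were isolated, which hemisphere the sham samples came from or whether animals were pooled.

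Immediate early genes are transcribed within minutes of a stimulus, without new protein synthesis, from promoters bound by factors that are already present in the resting cell, such as serum response factor and CREB. Their transcripts are short lived, and many of their products either switch on a later wave of genes or shut the signal off again. NF-kB works by the same logic: it induces its own inhibitors, among them I kappa B alpha (Nfkbia), and RNA-binding proteins such as tristetraprolin (Zfp36) that remove inflammatory transcripts. In microglia these genes respond to injury and to inflammatory ligands, and they are also known to be induced by tissue dissociation and cell sorting.

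The identity of the cells and the arrays bears on every result below. Of 14 microglia markers 13 had a probe set, and their mean log2 level was between 9.65 and 10.50 on all 30 arrays, although Olfml3 was dim (at or below the array's 30th percentile) on every array of 4 stroke groups. It was lower in each ipsilateral group (9.79 to 9.97 against 10.30 to 10.37 contralateral at 12 months and day 14, 9.90 to 10.04 against 10.34 to 10.50 at 12 months and day 3, 9.66 to 9.87 against 10.02 to 10.06 at 3 months and day 14, 9.65 to 9.86 against 10.18 to 10.27 at 3 months and day 3). The 12 markers of monocytes and infiltrating macrophages averaged 7.70 to 7.99 ipsilaterally against 6.01 to 6.39 contralaterally at 12 months and day 3, and 7.43 to 8.62 against 6.08 to 6.35 at 3 months and day 3. At day 14 their level was 6.52 to 7.18 against 6.06 to 6.34 at 12 months, and 6.64 to 6.87 against 6.06 to 6.12 at 3 months, and none of them was dim on all arrays of a stroke group except Ms4a7 in the contralateral group of 3 months and day 14. In these bulk samples fewer cells of a type and less RNA per cell cannot be told apart, and the part of these markers in the results on the early genes was not tested. Log2 values spread less within the arrays of 3-month stroke rats, with a standard deviation of 1.79 to 1.93, than within the other arrays, with 1.94 to 2.05, and a number in the sample codes separated the sham, day 3 and day 14 groups of 3-month rats. Comparisons at 3 months with sham or between days, and the comparison of sham ages, therefore cannot be told apart from that number, whereas both hemispheres of a rat always shared it. Within the contralateral group of 3 months and day 3, replicate 2 stood low, with 3 of the 35 early genes above their group mean and a median deviation of -0.18. Without it, the counts of called early genes below were 21 in place of 20 between hemispheres at 3 months and day 3, 12 in place of 10 for contralateral against sham, and 28 in place of 27 for the mean over the 4 hemisphere comparisons.

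Promoter windows, where one was matched, were searched for the sites that early-response factors are known to bind. RefSeq windows (assembly GRCr8) from 250 bases before to 50 after the transcription start were matched by symbol for 29 of the 38 genes. The other 9 (Fos, Jun, Atf3, Csrnp1, Egr3, Klf2, Myc, Nr4a3 and Ier3) had no window and were not searched, so their absence below says nothing about their promoters. The matched windows were searched on both strands for the CArG box of serum response factor, the kappaB motif of NF-kB, and TGACGTCA, the full CREB site. Of the 29, 5 held a CArG box (Dusp5, Egr1, Egr2, Klf6 and Zfp36), against 1.64% of all 33469 windows. A kappaB motif lay in the windows of Jund, Nfkbia, Nfkbiz, Nr4a1 and Tnfaip3, against 7.51% of all windows, and TGACGTCA in those of Btg2, Dusp1, Ier2, Jund, Maff and Ppp1r15a, against 1.83%. The shorter TGACG, which TGACGTCA contains, was found in 19 of the 29 and in 21.2% of all windows, the AP-1 motif TGANTCA in 3 and in 7.33%, the EGR motif GCGTGGGCG in 2 and in 0.544%, and the GC box GGGCGG in 20 and in 33.1%. A match is a description of the letters in the window and not evidence of a bound site.

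The 120 bases before the start are shown for 4 genes that cover the 3 motifs and the different outcomes below: Nfkbiz, which rose in every hemisphere comparison, Nfkbia, which passed the test in none, and Egr1 and Ppp1r15a, which fell in 3 of 4. Nfkbiz was given by the rule that chose sequences, and the other 3 were picked after their values were seen. Fosl2, which was also called higher in every hemisphere comparison, held none of the 3 motifs in its window and is not shown. Capitals mark the kappaB motif in Nfkbiz and Nfkbia, the CArG boxes in Egr1 and TGACGTCA in Ppp1r15a. In GRCr8 the stretches lie at chr11:58251601-58251720 (+ strand), chr6:78597073-78597192 (- strand), chr18:26736958-26737077 (+ strand) and chr1:105139597-105139716 (- strand).
Nfkbiz: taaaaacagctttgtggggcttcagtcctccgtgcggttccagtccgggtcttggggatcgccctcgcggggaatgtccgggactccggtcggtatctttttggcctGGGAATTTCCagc
Nfkbia: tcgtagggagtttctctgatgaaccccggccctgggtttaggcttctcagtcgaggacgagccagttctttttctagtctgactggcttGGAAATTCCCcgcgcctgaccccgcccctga
Egr1: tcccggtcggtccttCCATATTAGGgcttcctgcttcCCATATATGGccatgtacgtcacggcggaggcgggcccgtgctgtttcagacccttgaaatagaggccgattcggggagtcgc
Ppp1r15a: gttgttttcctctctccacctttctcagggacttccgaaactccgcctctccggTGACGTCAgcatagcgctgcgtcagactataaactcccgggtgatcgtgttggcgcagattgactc
The kappaB motif ends 4 bases before the start in Nfkbiz and 22 bases before it in Nfkbia, both Egr1 CArG boxes lie within 105 bases of the start, and the Ppp1r15a site spans bases -66 to -59.

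The first comparison taken here is of microglia of the injured hemisphere with those of the opposite hemisphere of the same rats. At day 3 many of the early genes, such as Egr1, Egr2 and Fos, were lower in the injured hemisphere, while Fosl2 and Nfkbiz were higher at both days and both ages. Dusp2, Gadd45b, Nr4a1 and Nr4a2 were higher in some of these comparisons. Every log2 difference below is given with its standard error from 1 limma model of all 30 arrays (3 arrays a group), and a gene counts as called, higher or lower, where its Benjamini-Hochberg adjusted p over the 11675 genes is under 0.05. At 12 months and day 14, 5 of the 35 early genes were called higher and 3 lower, where 16.8% of all genes were called and 5.94% were called lower. On day 3 at that age, 3 were called higher and 20 lower, where 28.7% of all genes were called and 10.0% were called lower. Among 3-month rats, 5 were called higher and 1 lower at day 14, against 20.3% of all genes called and 7.09% called lower. The count at day 3 was 5 higher and 15 lower, against 20.4% of all genes called and 8.95% called lower.

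The share of early genes called lower at day 3, 57.1% at 12 months and 42.9% at 3 months, was above the share of all genes. The share called higher was 14.3% at 12 months and day 14 and 8.57% at 12 months and day 3. It was 14.3% on each day at 3 months. Shares of all genes called higher were 10.9% and 18.7% at 12 months and 13.2% and 11.5% at 3 months (day 14, then day 3). The median log2 difference of the 35 was -0.11 at 12 months and day 14, -0.30 at 12 months and day 3, -0.09 at 3 months and day 14 and -0.22 at 3 months and day 3, and that of all genes was -0.01 in each. Averaged over the 4 comparisons, 6 early genes (17.1%) were called higher and 21 (60%) lower. Of all genes, 43.3% were called there, 24.4% higher and 18.9% lower. At day 14 the balance depended on scaling: after quantile normalization of the arrays 5 were called higher and 8 lower at 12 months and 4 higher and 9 lower at 3 months, whereas at day 3 the counts became 3 higher and 23 lower at 12 months and 5 higher and 17 lower at 3 months. The plot of hemisphere differences has its blue points, the genes called lower, mainly in the day 3 panels.

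**Figure D1:**
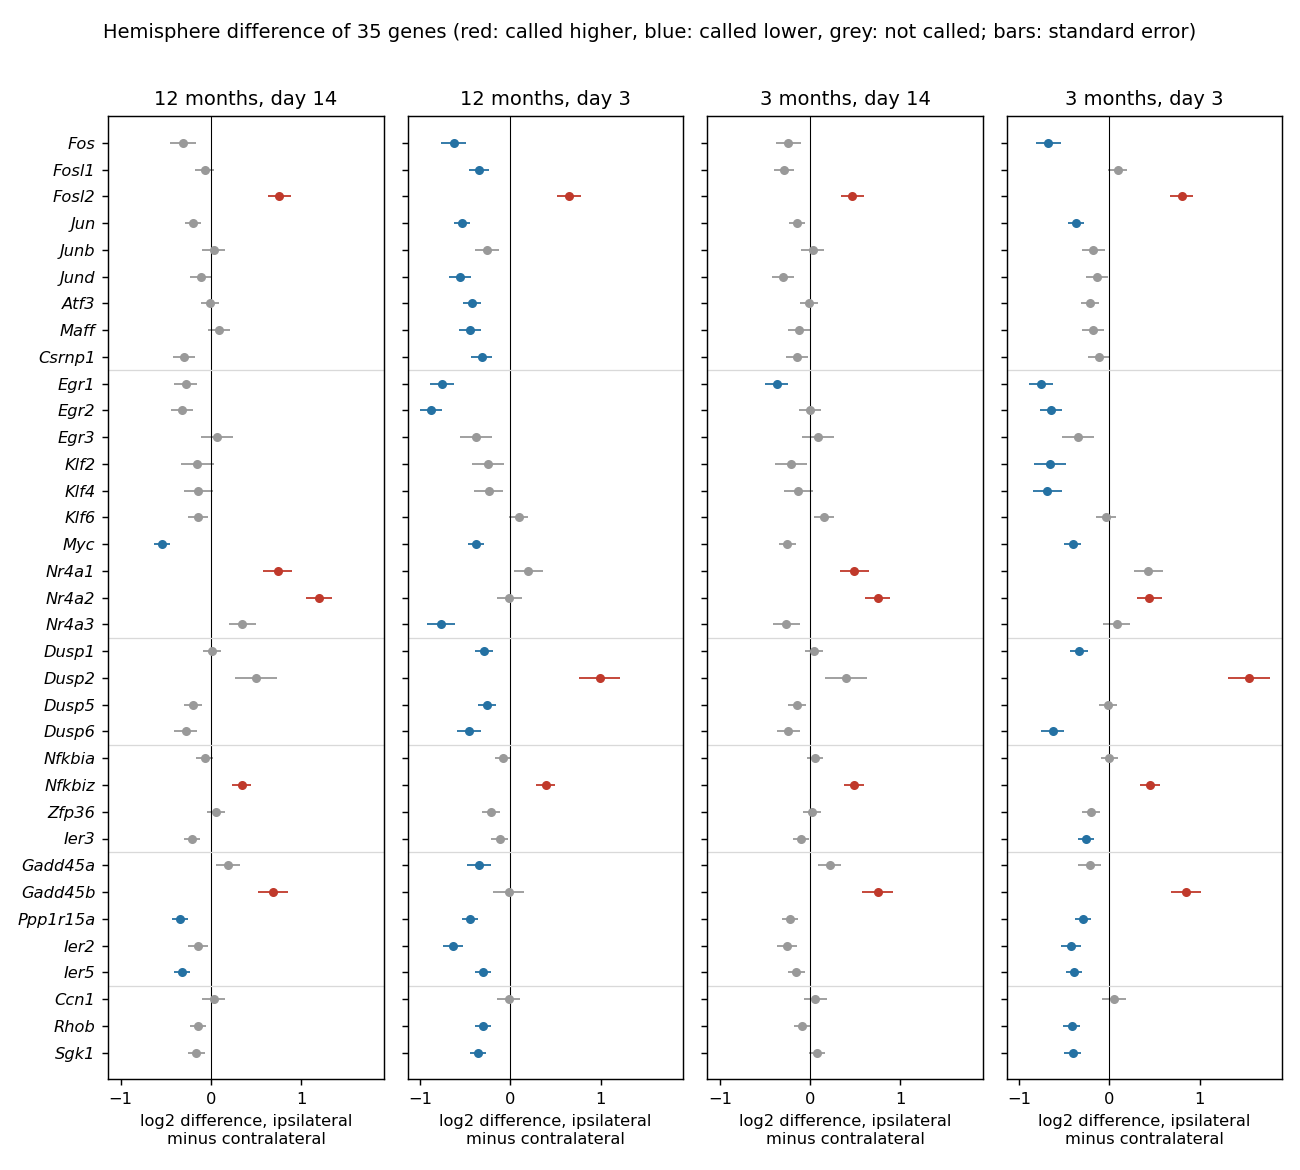
Log2 difference of ipsilateral minus contralateral microglia (x axis) with its standard error for the 35 early genes (y axis, grouped by role) in the 4 hemisphere comparisons. Red points were called higher, blue points called lower and grey points not called by limma. Day 3 has 20 (12 months) and 15 (3 months) blue points, and day 14 has 3 and 1.

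Heat shock genes, which like early genes are known to be induced by cell handling, were lower as well. Of 13 tested heat shock genes, 12 were called lower in the injured hemisphere at 12 months and day 14, 10 at 12 months and day 3, 8 at 3 months and day 14 and 12 at 3 months and day 3, and none was called higher. Their median log2 differences were -0.50, -0.71, -0.31 and -0.66 in that order. Of all genes, 5.94%, 10.0%, 7.09% and 8.95% were called lower in the same order. Bag3, a co-chaperone, differed by -1.04 ± 0.13 at 12 months and day 3, and Hspb1, a small heat shock protein, by -1.16 ± 0.11 at 3 months and day 3. Of all genes, 18.7% at 12 months and 11.5% at 3 months were called higher at day 3. At day 3 the markers of monocytes and macrophages were called higher for 11 of 12 genes at 12 months and 12 of 12 at 3 months, and markers of neutrophils for 1 of 9 and 4 of 9. Whether handling or these other cells had a part in the lower early genes was not tested.

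Among the AP-1 genes, Fosl2, which encodes the Fos-related subunit Fra-2, was the exception: it rose in the injured hemisphere while the other subunits that were called fell. Fosl2 at 12 months and day 14 had log2 levels of 8.79, 8.54 and 8.68 ipsilaterally, against 7.83, 7.93 and 7.98 contralaterally, and at day 3 8.71, 8.47 and 8.73 ipsilaterally, against 7.91, 8.05 and 7.99 contralaterally. At 3 months and day 14 the ipsilateral arrays had 8.21, 8.43 and 8.18, against 8.02, 7.88 and 7.52 contralaterally, and at day 3 8.94, 8.51 and 8.28, against 7.73, 7.64 and 7.94. Sham arrays had 8.03, 8.07 and 8.12 at 12 months and 7.51, 7.54 and 7.66 at 3 months. All 12 ipsilateral arrays stood above all contralateral and sham arrays of their own age. The log2 differences between hemispheres were 0.76 ± 0.13 (adjusted p = 5.3e-05, limma), 0.65 ± 0.13 (adjusted p = 0.00021), 0.47 ± 0.13 (adjusted p = 0.0088) and 0.80 ± 0.13 (adjusted p = 2.2e-05) in the same order, or 1.69-fold, 1.57-fold, 1.38-fold and 1.74-fold higher. At 3 months and day 14 the call was lost without contralateral replicate 3 (0.32, adjusted p = 0.093) or ipsilateral replicate 2 (0.39, adjusted p = 0.057).

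Fos itself, the classical partner of Jun in AP-1, fell at day 3. At 12 months Fos had 9.66, 10.05 and 10.11 ipsilaterally, against 10.46, 10.73 and 10.52 contralaterally, and at 3 months 10.01, 10.28 and 10.45 against 11.03, 10.73 and 11.03. The arrays did not overlap at either age, and the log2 differences were -0.63 ± 0.14 (adjusted p = 0.0011, limma) and -0.68 ± 0.14 (adjusted p = 0.00065). Jun fell, with a log2 difference of -0.54 ± 0.09 at 12 months and -0.37 ± 0.09 at 3 months on day 3. At day 14 Fos differed by -0.31 ± 0.14 at 12 months and -0.24 ± 0.14 at 3 months and Jun by -0.20 ± 0.09 and -0.14 ± 0.09, none of which was called. The hemisphere differences of Fos and Jun were not shown to differ between the days, in the test given below.

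Further genes of the AP-1 group, which here holds Csrnp1 as well, were called lower at 12 months and day 3. Jund, the constitutive Jun subunit, differed there by -0.56 ± 0.12, Maff, a small Maf factor without an activation domain, by -0.45 ± 0.12, and Atf3, a stress-induced repressor of the ATF family, by -0.43 ± 0.10. Fosl1, which encodes Fra-1, fell, with a difference of -0.35 ± 0.11 and Csrnp1, a nuclear protein with cysteine- and serine-rich domains, by -0.32 ± 0.12. These 5 genes were not called at 3 months and day 3, where their differences ran from -0.22 for Atf3 to 0.09 for Fosl1. No AP-1 gene was called in the test of the difference between ages, given below. Junb was called in no hemisphere comparison, with differences between -0.26 and 0.03. The calls of Csrnp1, Fosl1 and Maff at 12 months and day 3 were each lost without at least 1 array, with values of -0.19 for Csrnp1 without contralateral replicate 2 (adjusted p = 0.33), -0.31 for Fosl1 without ipsilateral replicate 3 (adjusted p = 0.067; -0.28 and 0.056 after quantile normalization) and -0.35 for Maff without contralateral replicate 2 (adjusted p = 0.051).

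Egr1, a zinc-finger factor induced through serum response factor, was the early gene with the lowest mean hemisphere difference. In 12-month rats at day 14, Egr1 had 10.86, 10.89 and 10.85 ipsilaterally, against 11.03, 11.31 and 11.12 contralaterally, and at day 3 10.25, 10.37 and 10.26, against 11.14, 11.06 and 10.95. At 3 months the ipsilateral arrays had 11.00, 10.64 and 10.81 at day 14, against 11.38, 11.06 and 11.12 contralaterally, and 10.47, 10.54 and 10.83 at day 3, against 11.56, 11.03 and 11.54. Sham arrays had 11.50, 11.23 and 10.96 at 12 months and 11.23, 11.16 and 11.03 at 3 months. In all 4 comparisons the ipsilateral arrays lay below the contralateral arrays. The log2 differences were -0.28 ± 0.13 at 12 months and day 14 (adjusted p = 0.16, limma), -0.76 ± 0.13 at day 3 (adjusted p = 5e-05), -0.37 ± 0.13 at 3 months and day 14 (adjusted p = 0.047) and -0.76 ± 0.13 at day 3 (adjusted p = 6.8e-05). The call at 3 months and day 14 was lost without contralateral replicate 1 or 3 (-0.27, adjusted p = 0.21, and -0.41, adjusted p = 0.062) and without ipsilateral replicate 2 or 3 (-0.28, adjusted p = 0.19, and -0.37, adjusted p = 0.099).

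Egr2, a related zinc-finger factor with a CArG box in the same window, fell at day 3 and was not called at day 14. In 12-month rats at day 14, Egr2 had 8.29, 8.28 and 8.30 ipsilaterally, against 8.52, 8.83 and 8.49 contralaterally, and at day 3 7.70, 7.82 and 7.73, against 8.59, 8.67 and 8.62. At 3 months and day 14 the ipsilateral arrays had 8.44, 8.21 and 8.30, against 8.25, 8.42 and 8.28, and at day 3 7.47, 7.10 and 7.67, against 8.04, 7.79 and 8.35. Sham arrays had 8.45, 8.23 and 8.27 at 12 months and 8.09, 8.16 and 8.14 at 3 months. Day 3 ipsilateral arrays stood below every other array of their age, and at 3 months and day 14 the hemispheres overlapped. The differences were -0.32 ± 0.12 (adjusted p = 0.069, limma), -0.88 ± 0.12 (adjusted p = 1.8e-06), 0.00 ± 0.12 (adjusted p = 1) and -0.65 ± 0.12 (adjusted p = 0.00019) in the same order. Egr3 was called in no hemisphere comparison, with differences between -0.38 and 0.09.

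Of the KLF factors and Myc, Myc fell in 3 of 4 comparisons. Myc, the growth-promoting transcription factor, had 8.09, 8.10 and 8.20 ipsilaterally at 12 months and day 14, against 8.65, 8.67 and 8.70 contralaterally, a difference of -0.54 ± 0.09 (adjusted p = 8.6e-05, limma). Its ipsilateral arrays lay below its contralateral arrays in that comparison, and it differed by -0.38 ± 0.09 at 12 months and day 3, -0.25 ± 0.09 at 3 months and day 14 (adjusted p = 0.057, not called) and -0.41 ± 0.09 at 3 months and day 3. Klf2 and Klf4, zinc-finger factors known to restrain inflammatory genes in macrophages, fell at 3 months and day 3, with differences of -0.66 ± 0.18 and -0.69 ± 0.16, and were not called at 12 months and day 3, with -0.25 ± 0.18 and -0.24 ± 0.16. The Klf2 call was lost without ipsilateral replicate 1 (-0.52, adjusted p = 0.067) or contralateral replicate 1 (-0.51, adjusted p = 0.068). Klf6 was called in no hemisphere comparison, with differences between -0.14 and 0.16.

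The NR4A orphan nuclear receptors, which act without a known natural ligand, did not move as a family. Nr4a2 had 9.24, 9.20 and 8.98 ipsilaterally at 12 months and day 14, against 8.03, 8.04 and 7.76 contralaterally, and at day 3 8.13, 8.0 and 7.94, against 8.06, 8.02 and 8.03. At 3 months it had 8.90, 9.36 and 8.73 at day 14, against 8.24, 8.27 and 8.22, and 8.44, 8.12 and 8.52 at day 3, against 7.96, 7.58 and 8.23. Sham arrays had 7.97, 8.07 and 8.20 at 12 months and 8.74, 8.61 and 8.72 at 3 months. The day 14 ipsilateral arrays were above every other array of their age at 12 months, while at 3 months they overlapped with sham, and at day 3 the hemispheres overlapped at both ages. Nr4a2 rose by a log2 difference of 1.20 ± 0.14 at 12 months and day 14 (2.3-fold, adjusted p = 1.4e-07, limma), 0.75 ± 0.14 at 3 months and day 14 (adjusted p = 0.00016) and 0.44 ± 0.14 at 3 months and day 3 (adjusted p = 0.022), and differed by -0.01 ± 0.14 at 12 months and day 3 (adjusted p = 0.96). The call at 3 months and day 3 was lost without contralateral replicate 2, the array that stood low (0.26, adjusted p = 0.21), and without ipsilateral replicate 1 or 3 (0.40, adjusted p = 0.086, and 0.36, adjusted p = 0.11).

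Nr4a1 was higher at day 14. In 12-month rats at day 14, Nr4a1 had 8.68, 8.55 and 8.46 ipsilaterally, against 7.58, 8.03 and 7.84 contralaterally, and at day 3 8.46, 8.39 and 8.64, against 8.24, 8.44 and 8.21. At 3 months it had 8.35, 9.26 and 8.48 at day 14, against 7.91, 8.37 and 8.33, and 8.82, 8.78 and 8.81 at day 3, against 8.44, 8.18 and 8.50. Sham arrays had 8.04, 8.28 and 8.38 at 12 months and 7.75, 7.76 and 7.71 at 3 months. The hemispheres did not overlap at 12 months and day 14 or at 3 months and day 3, and overlapped in the other comparisons, where ipsilateral replicate 2 of 3 months and day 14 stood high. Nr4a1 rose by 0.74 ± 0.16 at 12 months and day 14 (adjusted p = 0.0009, limma) and by 0.49 ± 0.16 at 3 months and day 14 (adjusted p = 0.025), a call lost without that replicate (0.21, adjusted p = 0.29) or without contralateral replicate 1 (0.35, adjusted p = 0.16), and after quantile normalization (0.40, adjusted p = 0.083). The day 3 differences were 0.20 ± 0.16 at 12 months (adjusted p = 0.37) and 0.43 ± 0.16 at 3 months (adjusted p = 0.054).

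Nr4a3 was called lower at 12 months and day 3. There Nr4a3 had 6.04, 6.06 and 6.01 ipsilaterally, against 6.76, 6.91 and 6.76 contralaterally, and at day 14 7.16, 6.94 and 6.79, against 6.63, 6.82 and 6.39. At 3 months it had 6.77, 7.16 and 6.69 at day 14, against 6.91, 7.37 and 7.10, and 6.70, 6.23 and 6.49 at day 3, against 6.47, 5.98 and 6.71. Sham arrays had 7.07, 7.16 and 7.13 at 12 months and 7.35, 7.14 and 7.18 at 3 months. The 3 ipsilateral arrays of 12 months and day 3 were close together and below all other arrays of that age. The differences were 0.35 ± 0.15 at 12 months and day 14 (adjusted p = 0.12, limma), -0.77 ± 0.15 at day 3 (adjusted p = 0.0002), -0.26 ± 0.15 at 3 months and day 14 (adjusted p = 0.25) and 0.08 ± 0.15 at day 3 (adjusted p = 0.79).

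**Figure D2:**
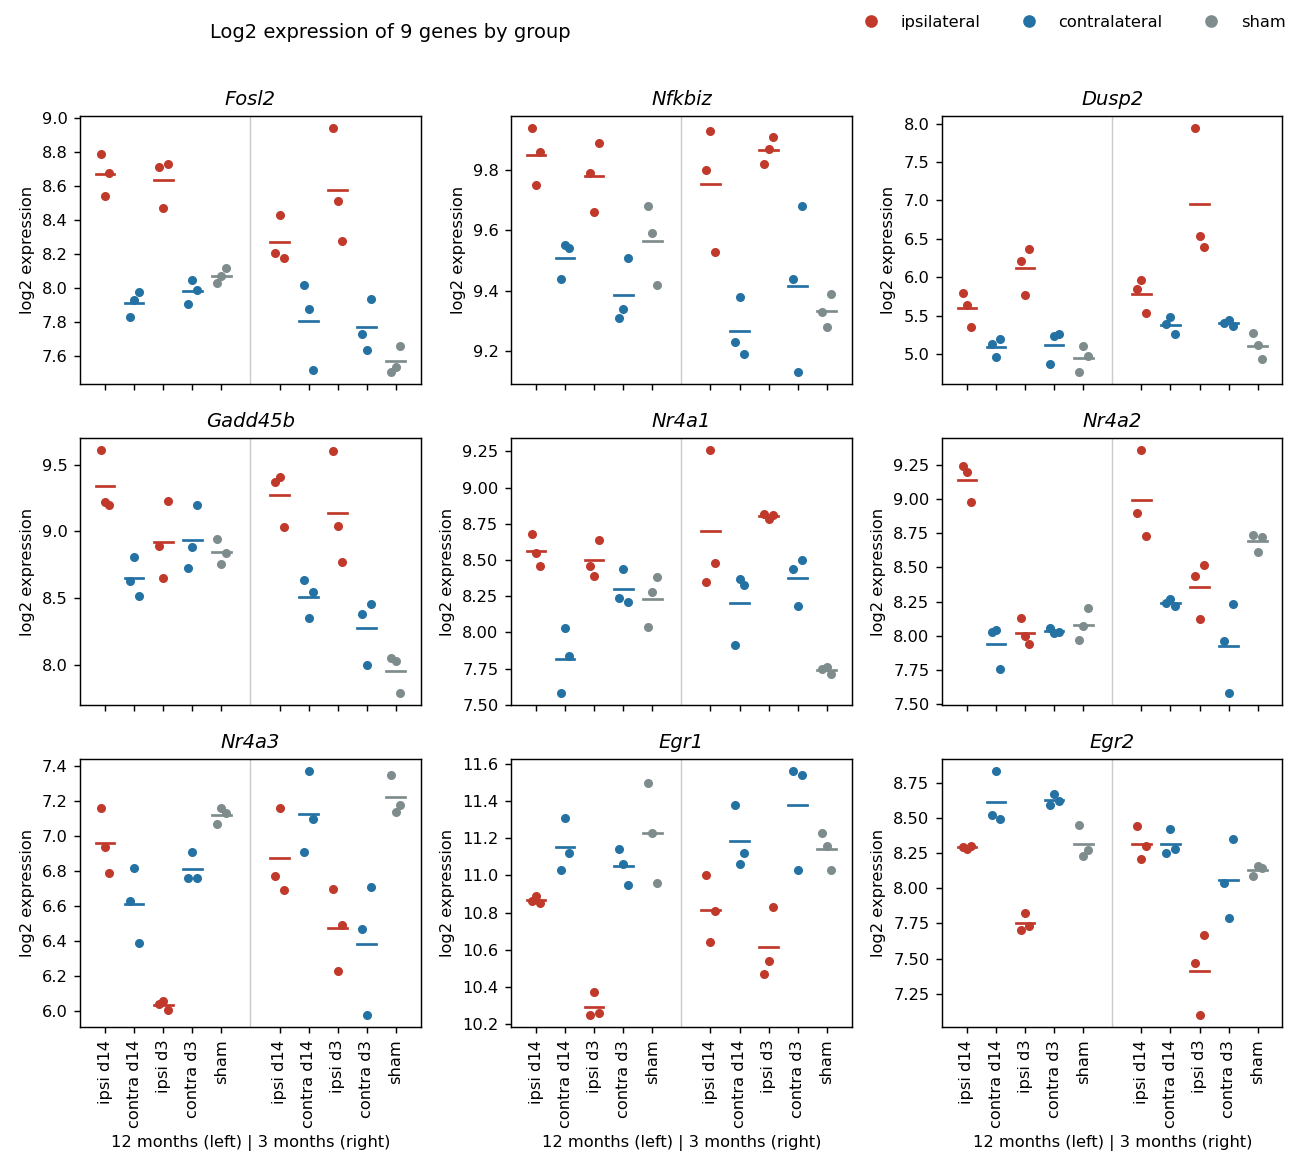
Log2 expression (y axis) of 9 early genes on each array, by group (x axis), with 12-month groups left and 3-month groups right of the grey line. Points are arrays, horizontal bars are means of 3 arrays, and ipsi, contra, d14 and d3 stand for the ipsilateral and contralateral hemisphere and days 14 and 3. Ipsilateral Fosl2 lies above contralateral Fosl2 in all 4 comparisons and ipsilateral Egr1 below contralateral Egr1.

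The MAP kinase phosphatases end MAP kinase signalling by removing its activating phosphates, and they split. Dusp2, a nuclear phosphatase of immune cells, had the largest hemisphere difference of the 35 genes. Levels of Dusp2 at 12 months and day 14 were 5.80, 5.64 and 5.35 ipsilaterally, against 5.13, 4.96 and 5.19 contralaterally, and at day 3 6.21, 5.77 and 6.37, against 4.87, 5.24 and 5.26. At 3 months it had 5.85, 5.96 and 5.53 at day 14, against 5.39, 5.48 and 5.26, and 7.94, 6.54 and 6.40 at day 3, against 5.41, 5.44 and 5.36. Sham arrays had 4.77, 5.10 and 4.97 at 12 months and 5.27, 5.12 and 4.93 at 3 months. The ipsilateral arrays stood above the contralateral arrays in all 4 comparisons, with replicate 1 of 3 months and day 3 far above its group. Dusp2 rose by 0.99 ± 0.23 at 12 months and day 3 (1.99-fold, adjusted p = 0.0012, limma) and by 1.55 ± 0.23 at 3 months and day 3 (2.94-fold, adjusted p = 7.1e-06). Its day 14 differences were 0.50 ± 0.23 at 12 months (adjusted p = 0.15) and 0.40 ± 0.23 at 3 months (adjusted p = 0.23), neither of which was called.

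The other phosphatases fell where they were called. Dusp6, the cytoplasmic phosphatase of ERK, had 9.75, 9.86 and 9.79 ipsilaterally at 12 months and day 3, against 10.24, 10.40 and 10.14 contralaterally, and 9.51, 9.25 and 9.77 at 3 months and day 3, against 10.32, 10.00 and 10.09. The arrays did not overlap, and the differences were -0.46 ± 0.13 and -0.63 ± 0.13. Dusp1, which acts mainly on p38 and JNK, fell, with a difference of -0.29 ± 0.10 at 12 months and -0.34 ± 0.10 at 3 months on day 3, and Dusp5, the nuclear phosphatase of ERK, by -0.26 ± 0.10 at 12 months and day 3. The Dusp5 call was lost without any single array of that comparison (6 of 6), and the Dusp1 calls without ipsilateral replicate 1 at 12 months (-0.22, adjusted p = 0.13) or at 3 months (-0.25, adjusted p = 0.10), among others.

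Of the NF-kB feedback genes, Nfkbiz was called in all 4 comparisons and Nfkbia in none. Nfkbiz encodes I kappa B zeta, a nuclear relative of the I kappa B inhibitors that is also needed to switch on a later set of NF-kB targets. Levels of Nfkbiz at 12 months and day 14 were 9.94, 9.75 and 9.86 ipsilaterally, against 9.44, 9.55 and 9.54 contralaterally, and at day 3 9.79, 9.66 and 9.89, against 9.31, 9.34 and 9.51. At 3 months it had 9.80, 9.93 and 9.53 at day 14, against 9.23, 9.38 and 9.19, and 9.82, 9.87 and 9.91 at day 3, against 9.44, 9.13 and 9.68. Sham arrays had 9.68, 9.59 and 9.42 at 12 months and 9.33, 9.28 and 9.39 at 3 months. In each comparison the ipsilateral arrays were above the contralateral arrays. Nfkbiz rose by 0.34 ± 0.11 (adjusted p = 0.031, limma), 0.39 ± 0.11 (adjusted p = 0.0073), 0.49 ± 0.11 (adjusted p = 0.0016) and 0.45 ± 0.11 (adjusted p = 0.0031) in the same order. The call at 12 months and day 14 was lost without 5 of the 6 arrays, with values of 0.29 to 0.36, and the one at 12 months and day 3 without ipsilateral replicate 3 (0.34, adjusted p = 0.051).

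Nfkbia, with a kappaB motif in its promoter window like Nfkbiz, was called in no hemisphere comparison. It had 11.20, 11.27 and 11.33 ipsilaterally at 12 months and day 3, against 11.25, 11.38 and 11.41 contralaterally, and 11.40, 11.47 and 11.35 at 3 months and day 3, against 11.50, 11.21 and 11.50. Its differences were -0.07 ± 0.09, -0.08 ± 0.09, 0.06 ± 0.09 and 0.00 ± 0.09, and the hemispheres overlapped in each comparison. Zfp36 was called in none either, with differences between -0.21 and 0.06. Ier3, an early response gene that protects some cells from apoptosis, fell, with a difference of -0.26 ± 0.09 at 3 months and day 3 (adjusted p = 0.046, limma), a call lost without ipsilateral replicate 1 (-0.21, adjusted p = 0.20), among others.

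The growth arrest and stress regulators split as well. Gadd45b, a stress sensor that NF-kB can induce, had 9.61, 9.22 and 9.20 ipsilaterally at 12 months and day 14, against 8.63, 8.81 and 8.52 contralaterally, and at day 3 8.89, 8.65 and 9.23, against 8.73, 8.88 and 9.20. At 3 months it had 9.37, 9.41 and 9.03 at day 14, against 8.64, 8.35 and 8.55, and 9.60, 9.04 and 8.77 at day 3, against 8.38, 8.0 and 8.46. Sham arrays had 8.94, 8.76 and 8.84 at 12 months and 8.05, 8.03 and 7.79 at 3 months. The hemispheres did not overlap except at 12 months and day 3. Gadd45b rose by 0.69 ± 0.17 at 12 months and day 14 (1.61-fold, adjusted p = 0.0042, limma), 0.75 ± 0.17 at 3 months and day 14 (adjusted p = 0.0017) and 0.85 ± 0.17 at 3 months and day 3 (adjusted p = 0.00038), and differed by -0.02 ± 0.17 at 12 months and day 3 (adjusted p = 0.96). Gadd45a, its paralog, fell, with a difference of -0.35 ± 0.13 at 12 months and day 3, a call lost without ipsilateral replicate 3 (-0.31, adjusted p = 0.13), among others, and was not called elsewhere.

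Ppp1r15a and Ier5 fell in 3 of 4 comparisons. Ppp1r15a encodes GADD34, the phosphatase subunit that restores protein synthesis after stress. It had 9.77, 9.66 and 9.89 ipsilaterally at 12 months and day 14, against 10.00, 10.18 and 10.16 contralaterally, and at day 3 9.57, 9.68 and 9.67, against 9.99, 10.18 and 10.09. The 12-month arrays did not overlap, and its differences were -0.34 ± 0.09 (adjusted p = 0.0063, limma), -0.45 ± 0.09 (adjusted p = 0.00022), -0.22 ± 0.09 (adjusted p = 0.082) and -0.29 ± 0.09 (adjusted p = 0.016) over the 4 comparisons in the same order. The last of these was lost without contralateral replicate 1 or 3 or ipsilateral replicate 1 or 2, with values of -0.24 to -0.27. Ier5, an early gene linked to the heat shock response, differed by -0.32 ± 0.09, -0.30 ± 0.09, -0.15 ± 0.09 and -0.39 ± 0.09, of which the one at 3 months and day 14 was not called. Ier2, another early response gene, fell at day 3, with differences of -0.64 ± 0.11 at 12 months and -0.43 ± 0.11 at 3 months. The call at 3 months was lost when the fit held only the arrays of the groups compared (adjusted p = 0.061, limma).

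Of the last 3 genes, Rhob and Sgk1 fell at day 3. Rhob, a short-lived small GTPase, differed by -0.30 ± 0.09 at 12 months and -0.42 ± 0.09 at 3 months, and Sgk1, a kinase induced by serum and glucocorticoids, by -0.36 ± 0.09 and -0.41 ± 0.09. The Rhob call at 12 months was lost without ipsilateral replicate 1 (-0.27, adjusted p = 0.064). Ccn1, a secreted matrix protein, was at or below the dim level on 18 of 30 arrays, with levels between 3.84 and 4.46, and was called in no comparison of any kind.

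Because each group held 3 arrays, the same differences were also taken rat by rat. The pairs follow the sample codes, and whether a sample pooled several animals is not stated. Each of the 12 stroke rats gave 1 difference per gene, ipsilateral minus contralateral, and an exact two-sided sign-flip permutation test over the 4096 sign patterns was adjusted over all genes, with 0.00049 as the smallest p it can give. It called 23 of the 35 early genes, 17 lower and 6 higher, against 35.6% of all genes called and 15.4% called lower. Fosl2 was higher in the injured hemisphere of 12 of 12 rats, with a mean of 0.67 ± 0.28 (SD), as were Dusp2 (0.86 ± 0.64) and Nfkbiz (0.42 ± 0.16). Fos (-0.46 ± 0.27), Egr1 (-0.54 ± 0.27), Myc (-0.40 ± 0.16) and Ppp1r15a (-0.32 ± 0.14) were lower in 12 of 12. Of all genes, 9.24% were higher in 12 of 12 rats and 5.09% lower, beside 3 and 4 of the 35 early genes. All 7 had an adjusted p of 0.0034 in the exact test.

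The other 3 genes called higher were Nr4a1 and Gadd45b (11 of 12 rats each) and Nr4a2 (10 of 12). Of the genes called lower, Jun, Klf4, Dusp6, Ier3, Ier2, Ier5 and Rhob were lower in 11 of 12 rats, Egr2, Klf2, Csrnp1 and Sgk1 in 10 and Jund and Atf3 in 9. Nr4a3 was lower in 7 rats and higher in 5 (mean -0.15 ± 0.47, adjusted p = 0.42, exact test). The median difference over the 35 genes was below 0 in each of the 6 rats of day 3, between -0.39 and -0.08, with 20 to 32 of the 35 lower, where 46.8% to 53.1% of all genes were lower in a rat. The lowest of these counts, in replicate 2 of 3 months and day 3, stood against 49.4% of all genes. Among the 6 rats of day 14 it ran from -0.16 to 0.07, with 14 to 27 of the 35 lower, where 45.5% to 53.4% of all genes were.

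**Figure D3:**
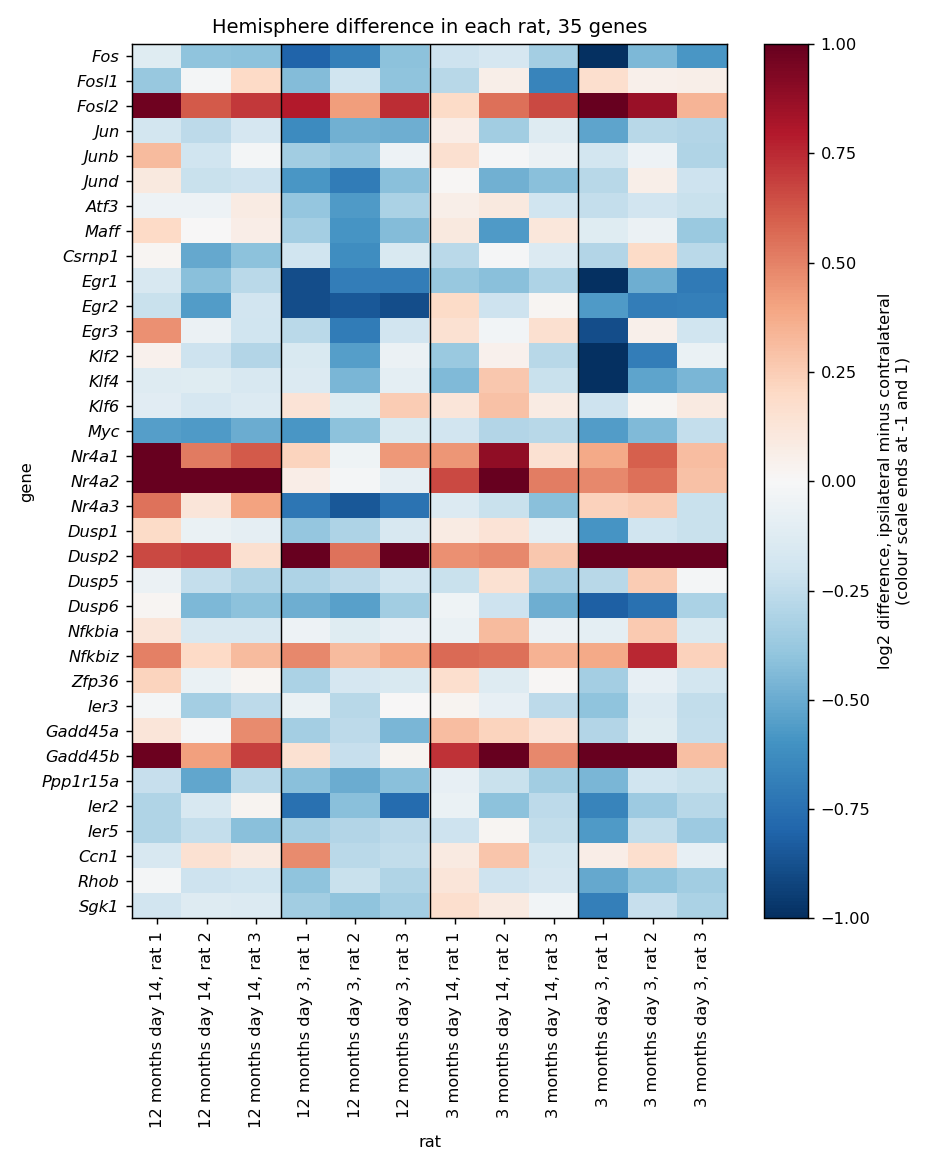
Hemisphere difference (colour, log2, ipsilateral minus contralateral) of the 35 early genes (rows) in each of the 12 stroke rats (columns, 12-month rats left, 3-month rats right, day 14 left of day 3 within an age). Colours saturate at -1 and 1. The rows of Fosl2, Dusp2 and Nfkbiz are red in all 12 columns, and those of Fos, Egr1, Myc and Ppp1r15a are blue in all 12.

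Comparison with sham rats asks whether the injured side or the opposite side had moved. These comparisons share their ipsilateral or contralateral arrays with those above. All 4 comparisons of an age, over both hemispheres and both days, share the same 3 sham arrays, which carry no day. Calls on both sides or at both days are therefore not independent of each other. At 12 months the contralateral hemisphere gave no early gene called at day 14 (4 at an unadjusted p under 0.05, limma), where 0.00857% of all genes were called, and none at day 3 (10 at an unadjusted p under 0.05), where 1.28% were called. The ipsilateral hemisphere at 12 months had 4 early genes called higher and 3 lower than sham at day 14. That was 20.0% of the early genes, the same share as of all genes. Called higher were 11.4% of the early genes and 11.9% of all genes, and called lower 8.57% and 8.09%. At day 3 the ipsilateral hemisphere had 2 called higher and 22 lower, against 37.1% of all genes called, 22.7% higher and 14.3% lower. The median log2 differences of the 35 genes were -0.10 at day 14 and -0.47 at day 3, and those of all genes -0.01 and -0.03. With quantile normalization the day 14 count became 2 higher and 10 lower.

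At 12 months and day 3, Nr4a3 had 6.04 ± 0.03 ipsilaterally and 7.12 ± 0.05 in sham (SD, n = 3 each), a difference of -1.08 ± 0.15 (adjusted p = 1e-06, limma). Fos had 9.94 ± 0.25 and 10.99 ± 0.11, a difference of -1.05 ± 0.14, and Egr1 10.29 ± 0.06 and 11.23 ± 0.27, a difference of -0.94 ± 0.13. The arrays of these genes did not overlap. Ier2 differed by -0.75 ± 0.11, Csrnp1 by -0.69 ± 0.12, Klf2 by -0.68 ± 0.18, Jund by -0.65 ± 0.12, Klf4 and Junb by -0.64 ± 0.16 and -0.64 ± 0.13, Jun by -0.63 ± 0.09 and Ppp1r15a by -0.60 ± 0.09. The other 11 genes called lower (Egr2, Dusp6, Maff, Myc, Atf3, Dusp1, Ier5, Rhob, Zfp36, Dusp5 and Ier3) differed by -0.57 to -0.25. Fosl2 (0.56 ± 0.13) and Dusp2 (1.17 ± 0.23) were called higher. Leaving out single arrays lost 2 of the 24 calls, Dusp5 and Ier3, both without sham replicate 1 among others (-0.23, adjusted p = 0.12, and -0.16, adjusted p = 0.24).

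At 12 months and day 14 the genes called higher than sham were Nr4a2 (1.06 ± 0.14), Dusp2 (0.65 ± 0.23), Fosl2 (0.60 ± 0.13) and Gadd45b (0.50 ± 0.17). Those called lower were Csrnp1 (-0.61 ± 0.12), Myc (-0.53 ± 0.09) and Ppp1r15a (-0.46 ± 0.09). Without ipsilateral replicate 1 the calls of Dusp2 (0.55, adjusted p = 0.17, limma) and Gadd45b (0.36, adjusted p = 0.22) were lost, as they were after quantile normalization (0.63, adjusted p = 0.053, and 0.44, adjusted p = 0.06).

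At 3 months the same comparisons were made against a background in which many genes differed from sham and the arrays' spread differed too. The ipsilateral hemisphere had 6 early genes called higher and 11 lower than sham at day 14. Of all genes, 34.4% were called there, 11.0% higher and 23.4% lower. At day 3 it had 6 called higher and 19 lower, against 56.8% of all genes called, 20.9% higher and 35.9% lower. The contralateral hemisphere had 4 called higher and 5 lower at day 14, against 38.7% of all genes called, 10.4% higher and 28.4% lower. At day 3 it had 3 called higher and 7 lower, against 51.6% of all genes called, 14.4% higher and 37.2% lower. These contralateral shares, 25.7% and 28.6% of the early genes, lay below the background. Of all genes called, 32.0% were higher in the ipsilateral comparison at day 14, 26.8% in the contralateral one at day 14 and 27.8% at day 3, and quantile normalization moved these to 45.0%, 38.2% and 40.4%. The contralateral count at day 3 turned round with it, to 19 early genes higher and 3 lower, while the ipsilateral counts became 8 higher and 7 lower at day 14 and 8 higher and 15 lower at day 3 and the contralateral count at day 14 became 8 higher and 1 lower. A direction for the family against sham at 3 months is therefore not given.

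Single genes with large differences kept their direction in both scalings. Dusp2 had 6.96 ± 0.85 ipsilaterally at 3 months and day 3 and 5.10 ± 0.17 in sham (SD, n = 3 each), a difference of 1.85 ± 0.23 (adjusted p = 6.2e-08, limma). At day 14 it differed from sham by 0.68 ± 0.23 (adjusted p = 0.021, limma), a call lost without sham replicate 3 (0.59, adjusted p = 0.086) and without ipsilateral replicate 1 (0.64, adjusted p = 0.058) or 2 (0.59, adjusted p = 0.091). At 3 months, Gadd45b differed from sham by 1.31 ± 0.17 at day 14 and 1.18 ± 0.17 at day 3, Nr4a1 by 0.96 ± 0.16 and 1.06 ± 0.16, Fosl2 by 0.70 ± 0.13 and 1.00 ± 0.13 and Nfkbiz by 0.42 ± 0.11 and 0.54 ± 0.11 on the ipsilateral side. Klf2 differed by -0.59 ± 0.18 and -1.34 ± 0.18, Dusp6 by -0.80 ± 0.13 and -0.95 ± 0.13 and Myc by -0.47 ± 0.09 and -0.83 ± 0.09. Fosl1 was called higher on both sides, with 0.29 ± 0.11 and 0.68 ± 0.11 ipsilaterally and 0.59 ± 0.11 and 0.59 ± 0.11 contralaterally at days 14 and 3. After quantile normalization the day 14 ipsilateral calls of Klf2 (-0.39, adjusted p = 0.10, limma) and Fosl1 (0.28, adjusted p = 0.051) were lost.

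The remaining ipsilateral calls at 3 months were lower than sham. At day 14 they were Ier3, Fos, Zfp36, Jund, Ier5, Rhob, Jun and Ier2, between -0.57 and -0.29. At day 3 they were Atf3 (-0.89 ± 0.10), Klf4 (-0.88 ± 0.16), Nr4a3 (-0.75 ± 0.15), Fos (-0.72 ± 0.14), Egr2 (-0.71 ± 0.12), Ppp1r15a (-0.60 ± 0.09) and, between -0.53 and -0.24, Egr1, Jun, Ier5, Ier2, Rhob, Nr4a2, Dusp1, Klf6, Sgk1 and Zfp36. After quantile normalization the day 3 difference of Klf6 became 0.08 and that of Nr4a2 0.04, and the calls of Ier2, Ier5 and Rhob at both days and of Jund at day 14 were lost, with differences between -0.15 and -0.10. Contralaterally, Atf3 (-0.67 ± 0.10), Nr4a3 (-0.84 ± 0.15), Nr4a2 (-0.77 ± 0.14), Klf2 (-0.68 ± 0.18), Myc (-0.42 ± 0.09), Dusp6 (-0.32 ± 0.13) and Ppp1r15a (-0.31 ± 0.09) were called lower at day 3 and Nr4a1 (0.63 ± 0.16) and Egr3 (0.57 ± 0.18) higher. At day 14, Dusp6 (-0.55 ± 0.13), Ier3 (-0.46 ± 0.09), Nr4a2 (-0.45 ± 0.14), Zfp36 (-0.41 ± 0.10) and Klf6 (-0.27 ± 0.11) were called lower and Gadd45b (0.56 ± 0.17), Nr4a1 (0.46 ± 0.16) and Maff (0.30 ± 0.12) higher. After quantile normalization the contralateral differences of Ppp1r15a at day 3 (0.02) and Klf6 at day 14 (0.03) changed sign, and the calls of Klf2 (-0.32), Myc (-0.02) and Dusp6 (-0.13) at day 3 and of Nr4a2 (-0.14), Zfp36 (-0.19) and Ier3 (-0.21) at day 14 were lost. Without single arrays, 8 of 17 ipsilateral calls at day 14 and 5 of 25 at day 3 were lost at least once, as were 4 of 9 contralateral calls at day 14 and 2 of 10 at day 3. Leaving out sham replicate 3 brought the ipsilateral count at day 14 to 11.

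**Figure D4:**
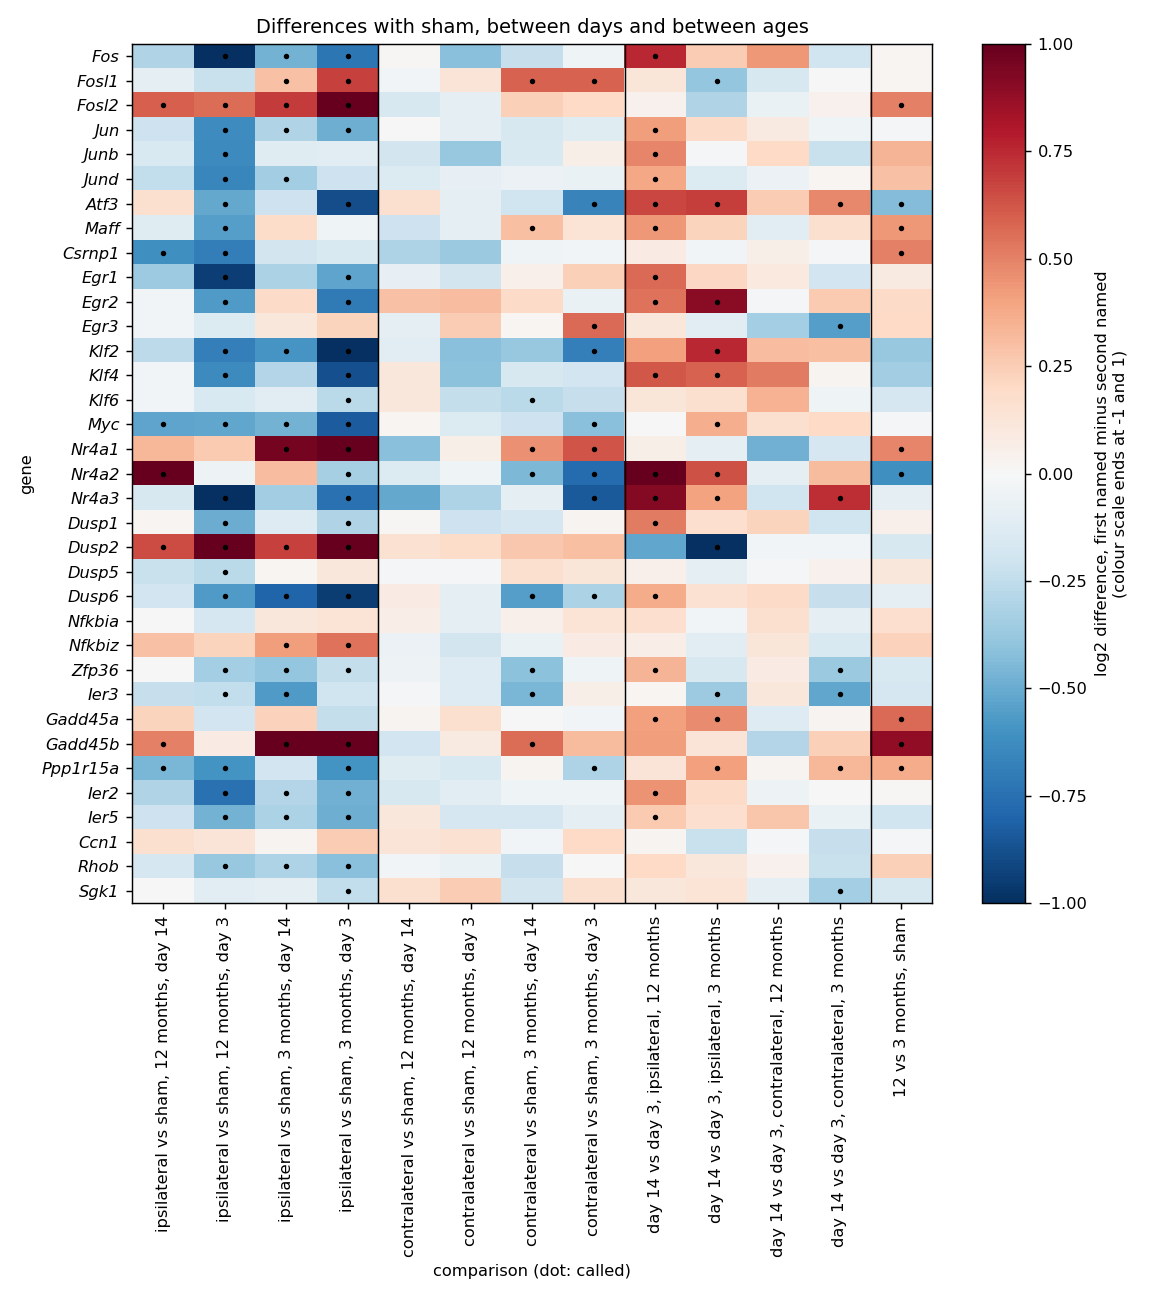
Log2 differences (colour, the group named before "vs" minus the one after it) of the 35 early genes (rows) in the comparisons with sham, between days and between sham ages (columns). Colours saturate at -1 and 1 and a dot marks a gene called by limma. The columns of the contralateral hemisphere against sham at 12 months hold no dot, and the ipsilateral column of 12 months and day 3 holds 24.

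Comparison of day 14 with day 3 asks how the early genes changed as time passed after the stroke. In the injured hemisphere at 12 months, 17 of the 35 were called higher at day 14 than at day 3 and 0 lower, where 20.6% of all genes were called and 6.53% were called higher. Their median difference was 0.34, against 0.00 over all genes. In the contralateral hemisphere at 12 months no early gene was called (7 at an unadjusted p under 0.05, limma), where 1.06% of all genes were called. At 3 months 9 were called higher and 3 lower ipsilaterally, near the shares of all genes, of which 29.6% were called. Called higher were 25.7% of the early genes and 22.0% of all genes, and called lower 8.57% and 7.51%. Contralaterally 3 were called higher and 4 lower, against 10.1% of all genes called, 8.31% higher and 1.84% lower. Of all genes called at 3 months, 74.6% were higher at day 14 ipsilaterally and 81.9% contralaterally, and 59.9% and 60.6% after quantile normalization, when the early genes split into 7 higher and 5 lower ipsilaterally and 3 higher and 3 lower contralaterally.

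Nr4a2 and Nr4a3 were the early genes with the largest difference between days at 12 months. Nr4a2 averaged 9.14 ± 0.14 at day 14 and 8.03 ± 0.10 at day 3 in the ipsilateral hemisphere (SD, n = 3 each), a difference of 1.11 ± 0.14 (adjusted p = 4e-07, limma). Nr4a3 averaged 6.96 ± 0.19 at day 14 and 6.04 ± 0.03 at day 3, a difference of 0.92 ± 0.15 (adjusted p = 3.3e-05). Neither gene's arrays overlapped between the days. Fos was higher at day 14 by 0.75 ± 0.14, Atf3 by 0.67 ± 0.10, Klf4 by 0.62 ± 0.16, Egr1 by 0.57 ± 0.13, Egr2 by 0.54 ± 0.12, Dusp1 by 0.52 ± 0.10 and Junb by 0.49 ± 0.13, and the other 8 (Ier2, Maff, Jun, Gadd45a, Jund, Dusp6, Zfp36 and Ier5) by 0.45 to 0.26. Single arrays left out lost 5 of the 17 calls (Dusp6, Gadd45a, Ier5, Jund and Zfp36), and the lowest count was 12, without ipsilateral replicate 1 of day 3.

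At 3 months the ipsilateral genes called higher at day 14 were Egr2 (0.90 ± 0.12), Klf2 (0.75 ± 0.18), Atf3 (0.69 ± 0.10), Nr4a2 (0.64 ± 0.14), Klf4 (0.59 ± 0.16), Gadd45a (0.47 ± 0.13), Ppp1r15a (0.41 ± 0.09), Nr4a3 (0.40 ± 0.15) and Myc (0.36 ± 0.09). Dusp2 (-1.18 ± 0.23), Fosl1 (-0.39 ± 0.11) and Ier3 (-0.36 ± 0.09) were lower. Contralaterally Nr4a3 (0.74 ± 0.15), Atf3 (0.48 ± 0.10) and Ppp1r15a (0.33 ± 0.09) were higher at day 14 and Egr3 (-0.55 ± 0.18), Ier3 (-0.52 ± 0.09), Zfp36 (-0.37 ± 0.10) and Sgk1 (-0.34 ± 0.09) lower. The ipsilateral calls of Fosl1, Gadd45a and Nr4a3 and the contralateral calls of Egr3, Ppp1r15a, Sgk1 and Zfp36 were each lost without at least 1 array, with adjusted p up to 0.24. After quantile normalization the ipsilateral calls of Myc (0.20), Nr4a3 (0.29) and Gadd45a (0.30) and the contralateral call of Zfp36 (-0.28) were lost. Between the same days the markers of monocytes and macrophages were called lower at day 14 for 7 of 12 genes at 12 months and 10 of 12 at 3 months in the ipsilateral hemisphere, and heat shock genes were called higher for 4 of 13 and 11 of 13, and their part in these values was not tested. Of all genes, 14.1% were called lower and 6.53% higher there at 12 months, and 7.51% and 22.0% at 3 months.

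Whether the hemisphere difference itself changed between days was tested as a difference of differences, which removes what both hemispheres of a rat share. At 12 months, 2 early genes were called, both with a higher value at day 14, where 5.34% of all genes were called. Nr4a2 had a hemisphere difference of 1.20 at day 14 and -0.01 at day 3, a change of 1.21 ± 0.20 (adjusted p = 0.00014, limma). Nr4a3 had 0.35 at day 14 and -0.77 at day 3, a change of 1.12 ± 0.21 (adjusted p = 0.00097). Both calls held without any single array. With the rat as a replicate block the count was 4. Quantile normalization raised it to 8, and the share of all called genes that were higher from 32.7% to 43.6%.

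At 3 months, 3 early genes were called, 2 higher and 1 lower at day 14, where 3.81% of all genes were called. Dusp2 had a hemisphere difference of 0.40 at day 14 and 1.55 at day 3, a change of -1.15 ± 0.32 (adjusted p = 0.04, limma), and -0.66 (adjusted p = 0.076) without ipsilateral replicate 1 of day 3, its highest array. Egr2 changed by 0.65 ± 0.17 and Sgk1 by 0.49 ± 0.12, and all 3 calls were lost without at least 1 array. At both ages the hemisphere differences of Fos, Jun, Ier2, Dusp6 and Rhob were called at day 3 only. They were not shown to differ between days in the model without a block. The same held at 12 months for Egr1, Egr2, Sgk1 and Dusp2, among others. Between ages the hemisphere difference at day 14 gave no early gene (3 at an unadjusted p under 0.05, limma), where 0.00857% of all genes were called. At day 3 it gave 1, Nr4a3 (2 with the rat as a replicate block), where 1.58% of all genes were called. Nr4a3 had -0.77 at 12 months and 0.08 at 3 months, a difference of -0.86 ± 0.21 (adjusted p = 0.033), and the call was lost without 8 of the 12 arrays, with values between -0.65 and -0.90 (adjusted p = 0.053 to 0.10), and after quantile normalization (adjusted p = 0.072). At day 3, Klf2, Klf4, Ier3, Nr4a2 and Gadd45b were called at 3 months only, and Fosl1, Jund, Maff, Atf3, Csrnp1, Dusp5 and Gadd45a at 12 months only. The hemisphere differences of these genes were not shown to differ between ages in the model without a block.

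Sham microglia of 12 months differed from those of 3 months in 9 early genes, 7 higher and 2 lower, where 13.0% of all genes were called. Calls higher made up 20% of the early genes and 7.47% of all genes, and calls lower 5.71% and 5.52%. Gadd45b averaged 8.84 ± 0.09 at 12 months and 7.96 ± 0.15 at 3 months (SD, n = 3 each), a difference of 0.89 ± 0.17 (adjusted p = 0.00082, limma), with no overlap. Gadd45a differed by 0.57 ± 0.13, Fosl2 by 0.50 ± 0.13, Csrnp1 by 0.50 ± 0.12, Nr4a1 by 0.49 ± 0.16, Maff by 0.43 ± 0.12 and Ppp1r15a by 0.37 ± 0.09, and Nr4a2 (-0.61 ± 0.14) and Atf3 (-0.43 ± 0.10) were lower. The calls of Csrnp1, Maff and Nr4a1 were each lost without some single array, with values down to 0.42 for Nr4a1 (without sham replicate 3 of 12 months, adjusted p = 0.15). Of all genes called, 57.5% were higher at 12 months, and 69.0% after quantile normalization, when 11 early genes were called higher and 2 lower.

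Genes around this module were counted from lists fixed by name. Of all genes, 10.9% were called higher and 5.94% lower between hemispheres at 12 months and day 14, and 18.7% and 10.0% at day 3. At 3 months the shares were 13.2% and 7.09% at day 14, and 11.5% and 8.95% at day 3. The counts of every list below stand beside these shares, and no list was tested against them. Among 25 tested NF-kB subunits and regulators, 8 were called higher and 1 lower in the injured hemisphere at 12 months and day 14, 7 and 2 at 12 months and day 3, 6 and 1 at 3 months and day 14, and 4 and 2 at 3 months and day 3. Birc3, an inhibitor-of-apoptosis ubiquitin ligase, differed by 0.82 ± 0.19 and Nfkb2, the p100 precursor, by 0.59 ± 0.12 at 12 months and day 14. Irak3, a brake on Toll-like receptor signalling, differed by 0.78 ± 0.15 there and by 0.60 ± 0.15 at 3 months and day 3, and Nfkbie, an I kappa B inhibitor, by -0.53 ± 0.11 at 12 months and day 3.

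Inflammatory targets of NF-kB went both ways. Of 21, 8 were called higher and 5 lower at 12 months and day 14, 9 and 8 at 12 months and day 3, 6 and 5 at 3 months and day 14, and 9 and 7 at 3 months and day 3. Il6 averaged 5.52 ipsilaterally and 7.69 contralaterally at 12 months and day 14, a difference of -2.17 ± 0.19 (adjusted p = 1.1e-09, limma), and differed by -2.01, -1.79 and -1.81 in the other comparisons. Il1b differed by 1.77 ± 0.25 at 12 months and day 14 and 2.05 ± 0.25 at 3 months and day 3, and Csf1, the growth factor of microglia, by 1.61 ± 0.17 at 12 months and day 14. Hbegf, an EGF receptor ligand that is itself an early gene, differed by -1.65 ± 0.17 at 12 months and day 3.

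Upstream kinases and related factors were counted the same way. Of 26 MAP kinase, SRF and CREB pathway genes, 4 were called higher and 1 lower at 12 months and day 14, 0 and 1 at 12 months and day 3, 2 and 2 at 3 months and day 14, and 1 and 1 at 3 months and day 3, with Dusp10, a p38 and JNK phosphatase, at 1.11 ± 0.12 at 12 months and day 14. Of 26 other AP-1, EGR, KLF and Maf family factors, 6 were higher and 4 lower, 2 and 7, 3 and 5, and 3 and 6 in the same order, with Klf10 at -0.81 ± 0.11 and Klf7 at -0.65 ± 0.09 at 12 months and day 14. Of 16 mRNA decay and growth arrest relatives, 1 was higher and 1 lower, 3 and 3, 1 and 1, and 2 and 2. Pim1, a serine-threonine kinase, differed by 0.90 ± 0.12 at 12 months and day 3 and Btg3, an antiproliferative gene of the Btg family, by -0.58 ± 0.10.

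Within groups the early genes varied together from array to array. Over the 30 arrays, deviations from the group means correlated with a median Pearson's r of 0.24 over the 595 pairs of the 35 genes, and 0.03 over pairs among 2000 genes sampled from all tested, as a description of arrays that share RNA handling and labelling. Of the pairs, 106 had r over 0.5 and 5 below -0.5. A block of Fos with Dusp1 (r = 0.88), Klf6 (0.83), Klf2 (0.81) and Klf4 (0.77) held some of the highest values, and Nr4a2 with Nr4a3 had 0.84. Dusp2 and Gadd45b correlated at 0.70, while Dusp2 correlated with Sgk1 at -0.58 and with Jun at -0.54, and Fosl2 with Ier2 at -0.52 and with Jun at -0.51.

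**Figure D5:**
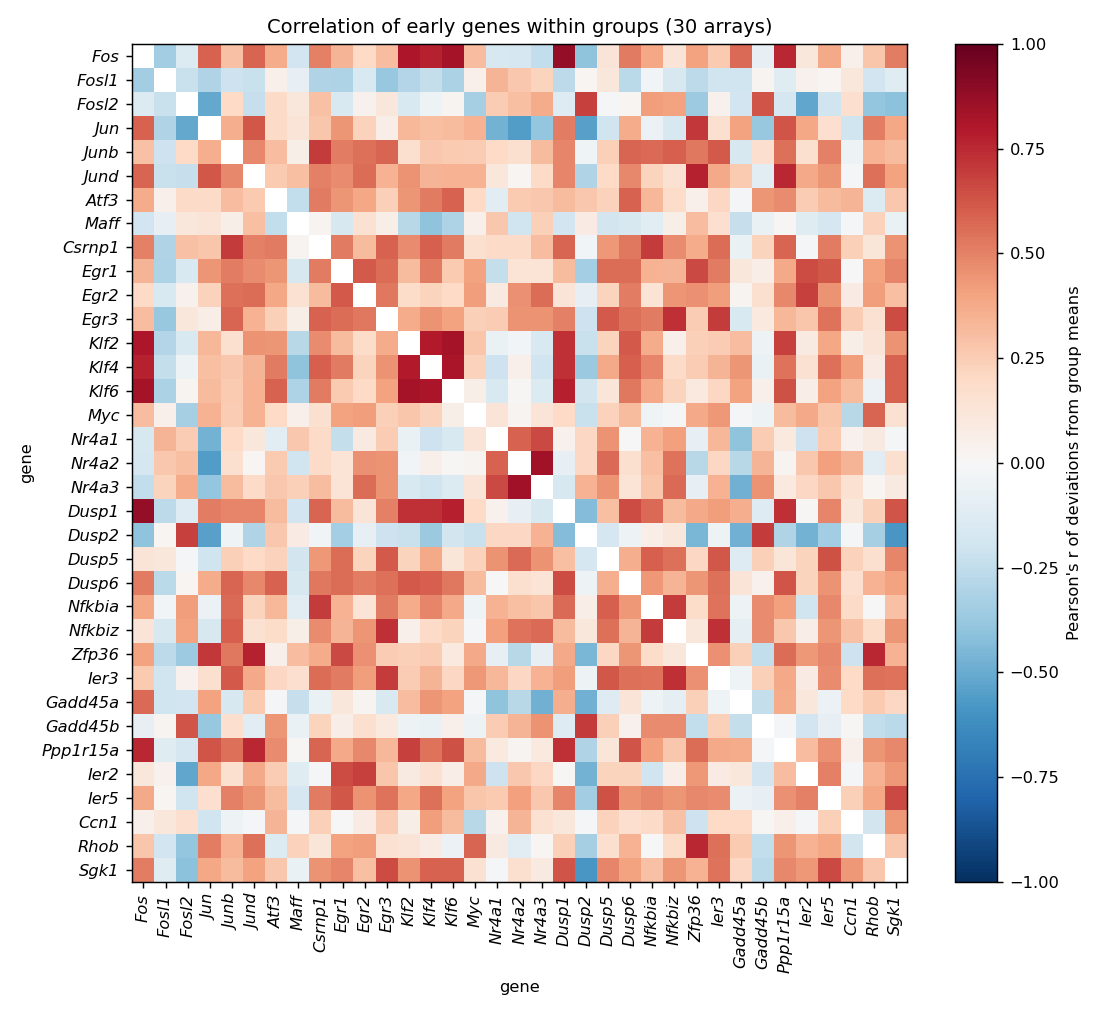
Pearson's r (colour) between the 35 early genes (rows and columns, in order of role) over 30 arrays, after each group's mean was subtracted. Red marks genes that deviated together within groups and blue genes that deviated in opposite directions. Fos and Dusp1 reach 0.88, and Dusp2 and Sgk1 have -0.58.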

How the data were processed

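The 30 arrays measured total RNA of rat microglia, with integrity numbers above 7.0, from 50 ng of RNA and 5 µg of labelled cDNA, per the labels' protocols. For 29214 probe sets the authors deposited log2 expression levels, made with Affymetrix Expression Console and RMA, per the submitters' processing notes (no versions stated). They ran from 2.18 to 13.68, with array medians of 5.06 to 5.24, and were used as deposited. Precision is limited by how few arrays a group has. Symbols came from the platform annotation (15310 with 1 symbol, 323 with several, 13581 not listed and left unnamed). Probe sets entered the test if 3 or more arrays had them above that array's 30th percentile, which was 4.07 to 4.35. limma 3.58.1 (R 4.3.3) fitted 10 group means with 20 residual and 8.8 prior degrees of freedom, without a block. It was checked on simulated data with independent arrays, which cannot check the choice of no block for paired arrays. The exact sign-flip test over 12 rats used the same genes. Sample codes tie the hemispheres of a rat. Deviations of paired arrays correlated at -0.08 to 0.21. The labels do not say whether sham arrays are separate animals. Alternatives were the mean over probe sets, no or a stricter filter, quantile normalization, the rat as a block, fewer arrays in the fit and single arrays left out. Genes given array by array were, in each hemisphere comparison, the 4 called with the largest difference, and those called in all 4. Further genes given so, Fos, Myc, Dusp6, Nfkbia and Ppp1r15a, were chosen after their values were seen. The members, lists and tests were chosen with earlier results of these data known.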

Additional observations from a re-analysis of the deposited data

Results flagged for a closer look

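In 6 cases the hemisphere difference of an early gene, ipsilateral minus contralateral, differed between days or ages by a test of that difference (limma, adjusted over all genes). At 12 months the difference of Nr4a2 was 1.21 higher at day 14 than at day 3 (adjusted p = 0.00014), and that of Nr4a3 was 1.12 higher (adjusted p = 0.00097). At 3 months the difference of Egr2 was 0.65 higher at day 14 than at day 3 (adjusted p = 0.029), that of Sgk1 was 0.49 higher (adjusted p = 0.021), and that of Dusp2 changed by -1.15 (adjusted p = 0.04). For Nr4a3 at day 3 the difference changed by -0.86 at 12 months relative to 3 months (adjusted p = 0.033). The Nr4a2 and Nr4a3 changes between days at 12 months held with any single array left out, and the other 4 did not. When the fit held only the arrays of the groups compared, the adjusted p of Egr2 and Dusp2 was 0.19 each, that of Sgk1 0.17 and that of Nr4a3 between ages 0.057.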

How the results depend on the processing

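Of 136 recounts of the early genes called under other settings, 123 stayed within 1.5 times the reported count, and of 186 recounts without a single array or rat, 172 did. Quantile normalization gave 13 genes in the hemisphere comparison at 12 months and day 14 and 13 at 3 months and day 14, 12 for ipsilateral against sham at 12 months and day 14, 22 for contralateral against sham at 3 months and day 3, 8 for the day change of the hemisphere difference at 12 months and 0 for its age change at day 3. Fits on the arrays of the groups compared gave 0 for day 14 against day 3 in the contralateral hemisphere at 3 months, 0 for the day change of the hemisphere difference at 3 months and 7 at 12 months, and 0 for the age change at day 3. The stricter filter gave 4 for the day change at 12 months. With the rat as a replicate block (correlation 0.072) that count was 4 and the age change at day 3 gave 2, and all 227 calls held. The block added calls in the hemisphere comparisons at 3 months (8 in place of 6 at day 14 and 21 in place of 20 at day 3) and for ipsilateral against sham at 12 months and day 14 (8 in place of 7), and changed no other count. Without single arrays the hemisphere counts ran from 7 to 8 at 12 months and day 14, 17 to 21 at 12 months and day 3, 4 to 8 at 3 months and day 14 and 15 to 21 at 3 months and day 3. For ipsilateral against sham the ranges were 11 to 18 at 3 months and day 14, 0 to 1 for contralateral against sham at 12 months and day 3, and 0 to 1 for day 14 against day 3 in the contralateral hemisphere at 12 months. They were 0 to 4 for the day change at 3 months, 2 to 4 at 12 months, and 0 to 1 for the age change at day 3.

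Of the 227 single calls of early genes, recomputed 1362 times in all under planned settings, 1296 held, 62 lost significance and 4 changed sign, all under quantile normalization and all against sham at 3 months: Klf6 (0.08 at day 3 ipsilaterally and 0.03 at day 14 contralaterally), Nr4a2 (0.04 at day 3 ipsilaterally) and Ppp1r15a (0.02 at day 3 contralaterally). Under single arrays left out, 1696 of 1884 held, 188 lost significance and 0 changed sign. The sign-flip count of 23 was 22 without the filter and 28 after quantile normalization, and 20 to 24 without single rats. Those settings were chosen after seeing the data. Each group holds 3 arrays, and whether those of sham are separate animals is not stated, levels of dim genes such as Ccn1 are bounded by background, and comparisons of 3-month stroke groups with sham cannot be told apart from the number in the sample codes.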
